A study of Mus musculus with 4 samples.

Results

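The genes described here are 10 pluripotency factors, Pou5f1, Sox2, Nanog, Tfcp2l1, Esrrb, Klf4, Klf2, Zfp42, Utf1 and Dppa4, measured in cultured germline stem cells. They were taken from the table of gene counts by gene symbol, and all 10 were found among its 32285 genes. Counts at or near 0 in every library were found for 1 of them, Nanog, and Sox2 was under 2 CPM in every library. CPM is a gene's count scaled by library total and TMM factor, which evens out depth and composition between libraries. The other 8 were clearly detected in both strains. The difference between the strains passed the test for 1 factor, Tfcp2l1, which fell about 4-fold in 129 cells (fold of B6 over 129, 4.10).

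Pluripotency is the capacity of a cell to form every tissue of the embryo. In mouse embryonic stem cells it is held by a small circuit of transcription factors in which the proteins of Pou5f1 (Oct4), Sox2 and Nanog bind many of the same enhancers, while Klf2, Klf4, Esrrb and Tfcp2l1 maintain the naive state downstream of LIF-STAT3 and Wnt signals. Germ cells use part of this circuit: Pou5f1 stays on in primordial germ cells and undifferentiated spermatogonia, whereas Nanog is shut down before the spermatogonia form. Cultured spermatogonia keep germ cell identity, and embryonic stem-like cells have been derived from such cultures.

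The samples were GS cells, long-term cultures of spermatogonia, established from the testes of wild-type mice aged 10 days. There were 2 libraries from strain 129 and 2 from C57BL/6 (B6), and both strains share the cell type, the age and the culture origin. Separate cultures or animals are not stated for the libraries within a strain, and the spread that the p-values rest on may therefore be technical. Each strain may be represented by 1 culture, and "F0" in the B6 titles is not explained. Library totals were 20798809 and 20375086 counts in 129 and 25374801 and 20488618 counts in B6. The germ cell markers were strongly expressed: Ddx4, a germ cell RNA helicase, was at 275 and 378 CPM in 129 and at 517 and 454 CPM in B6, and Dazl, a germ cell RNA-binding gene, was at 634 and 831 CPM in 129 and at 1051 and 1009 CPM in B6. A log2 fold change is always 129 over B6, with an approximate standard error (SE). Adjusted p-values are from edgeR's quasi-likelihood test with Benjamini-Hochberg adjustment over 16005 tested genes at a threshold of 0.05. That test gives no SE, so the SE was taken as the absolute log2 fold change over the square root of its F statistic.

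The promoters of 4 factors are printed because these genes stand for different results: Tfcp2l1 differed between the strains, Klf4 had the highest mean level per length, Nanog was at trace level, and Zfp42 held more of the searched motifs than any other window of these genes. Each is 300 bases of C57BL/6 reference sequence from RefSeq (build GRCm38.p6), read 5′ to 3′ on the gene's strand, from 250 bases before the start site to 50 bases after it. The windows lie at chr1:118627695-118627994 on the plus strand for Tfcp2l1, chr4:55532426-55532725 on the minus strand for Klf4, chr6:122707239-122707538 on the plus strand for Nanog and chr8:43306960-43307259 on the minus strand for Zfp42. In the first 3 sequences capitals mark CG dinucleotides, and in the last they mark motif matches.
Tfcp2l1: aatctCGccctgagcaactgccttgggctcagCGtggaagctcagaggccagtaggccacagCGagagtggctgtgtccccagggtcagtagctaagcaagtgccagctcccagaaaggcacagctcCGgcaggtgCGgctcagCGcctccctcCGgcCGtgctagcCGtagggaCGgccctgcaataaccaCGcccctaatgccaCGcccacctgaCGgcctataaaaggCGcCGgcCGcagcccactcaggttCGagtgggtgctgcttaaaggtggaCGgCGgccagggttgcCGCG
Klf4: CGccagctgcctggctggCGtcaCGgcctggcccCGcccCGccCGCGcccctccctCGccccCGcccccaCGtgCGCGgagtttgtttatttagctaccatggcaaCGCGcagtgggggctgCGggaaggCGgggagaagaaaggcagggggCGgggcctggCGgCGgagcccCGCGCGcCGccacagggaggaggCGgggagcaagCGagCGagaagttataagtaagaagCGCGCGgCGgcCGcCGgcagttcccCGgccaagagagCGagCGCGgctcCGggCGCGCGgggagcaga
Nanog: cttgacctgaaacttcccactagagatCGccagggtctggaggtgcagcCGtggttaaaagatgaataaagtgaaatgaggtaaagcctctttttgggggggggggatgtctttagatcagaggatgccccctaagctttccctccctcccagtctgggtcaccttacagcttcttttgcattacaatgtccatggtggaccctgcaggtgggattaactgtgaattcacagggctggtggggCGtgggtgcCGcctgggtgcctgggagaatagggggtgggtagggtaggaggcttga
Zfp42: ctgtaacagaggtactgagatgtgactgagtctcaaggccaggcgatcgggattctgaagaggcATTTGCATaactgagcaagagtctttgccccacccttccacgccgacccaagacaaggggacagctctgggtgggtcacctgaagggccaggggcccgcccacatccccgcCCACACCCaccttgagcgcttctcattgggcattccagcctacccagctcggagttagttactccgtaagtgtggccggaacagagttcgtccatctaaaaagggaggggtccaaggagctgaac

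RefSeq windows were found for 9 of the 10 factors, all but Dppa4, and 3 of these genes had a pair of start sites. Klf4 had 40 CG dinucleotides in its window, a CpG observed over expected ratio of 0.974, above 92.6% of the 32851 promoters in the table. Klf2 and Sox2 had ratios of 0.889 and 0.819. Tfcp2l1 had 21 CG dinucleotides and a ratio of 0.656, and Utf1 a ratio of 0.615. The most CpG-poor windows belonged to Nanog, with 4 CG dinucleotides and ratios of 0.192 and 0.181 at its start sites. Esrrb followed, with ratios of 0.266 and 0.318 at its start sites, against a median of 0.384 over all promoters. Pou5f1, with ratios of 0.374 and 0.388, lay near that median, and Zfp42 had a ratio of 0.441. The nearly silent factors differed in this respect, Nanog having a CpG-poor window and Sox2 a CpG-rich one. The Sox2 window, set by its RefSeq start site, ends at chr3:34650044. The GENCODE M21 gene used for the Sox2 level begins at chr3:34650405, outside that window. Motifs were searched on both strands. The octamer ATGCAAAT, the classic POU factor site, occurred in 1.74% of all promoters and among these genes only in the Zfp42 window, on the opposite strand 186 bases before the start site. The KLF box GGGTGTGG occurred in 3.56% of promoters and here also only in Zfp42, 75 bases before the start site, where it did not overlap the octamer. The SOX core ACAAAG, found in 18.7% of promoters, was present in the Sox2 window only, 206 bases before the start site. A match is a description of these letters and not evidence of binding. Only these exact letters were searched, so the lack of a match does not show that a window holds no site.

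**Figure D1:**
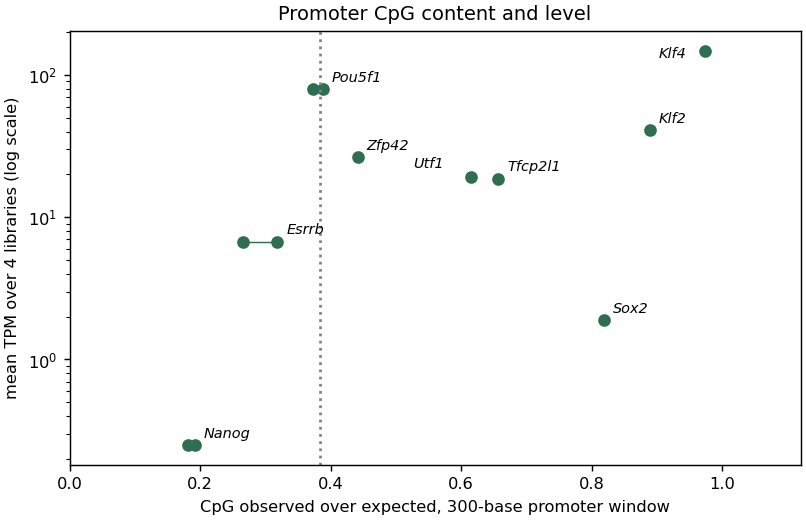
CpG observed over expected in the 300-base RefSeq promoter window (horizontal axis, a ratio) against the mean level per length over the 4 libraries (vertical axis, TPM on a log scale) for the 9 factors with a window. Points joined by a line are 2 start sites of a gene, and the dotted line is the median of all promoters, 0.384; Nanog lies at the bottom left, at 0.250 TPM, and Sox2 lies low on the CpG-rich side, at 1.88 TPM.

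Levels of different genes can be compared only per length, so counts were divided by the merged exon length of GENCODE M21 and scaled to an equal total in each library (TPM). Klf4 had the highest mean, 147 TPM over the 4 libraries, above 91.5% of tested genes, though at 78.2 TPM it was below Dppa4, at 106 TPM, in 129 replicate 2. Dppa4 followed with 87.3 TPM and Pou5f1 with 79.7 TPM, above 83.1% and 81.3% of tested genes. Klf2 stood at 41.1 TPM, Zfp42 at 26.5 TPM, Utf1 at 19.2 TPM and Tfcp2l1 at 18.7 TPM, around the median tested gene at 21.03 TPM. Esrrb was lower, at 6.73 TPM, and Sox2 and Nanog were at 1.88 and 0.250 TPM. Of the 9 pairs of neighbours in this order, 7 had overlapping ranges over the 4 libraries. The exceptions were Esrrb, at 3.60 to 9.92 TPM, over Sox2, at 1.09 to 3.07 TPM, and Sox2 over Nanog, at 0 to 0.339 TPM. Among the overlapping pairs, Pou5f1 was above Klf2 in each library, though barely in 129 replicate 1 (56.0 against 55.5 TPM). Tfcp2l1 was likewise above Esrrb in each library, with 8.47 against 7.22 TPM in 129 replicate 2. The order within the other overlapping pairs differed between libraries and is not resolved. The place of Tfcp2l1 in the order differed with strain: at 6.35 and 8.47 TPM it was below Zfp42 and Utf1 in both 129 libraries, and at 32.6 and 27.3 TPM it was above Utf1 in both B6 libraries, where Utf1 was at 29.7 and 20.5 TPM.

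**Figure D2:**
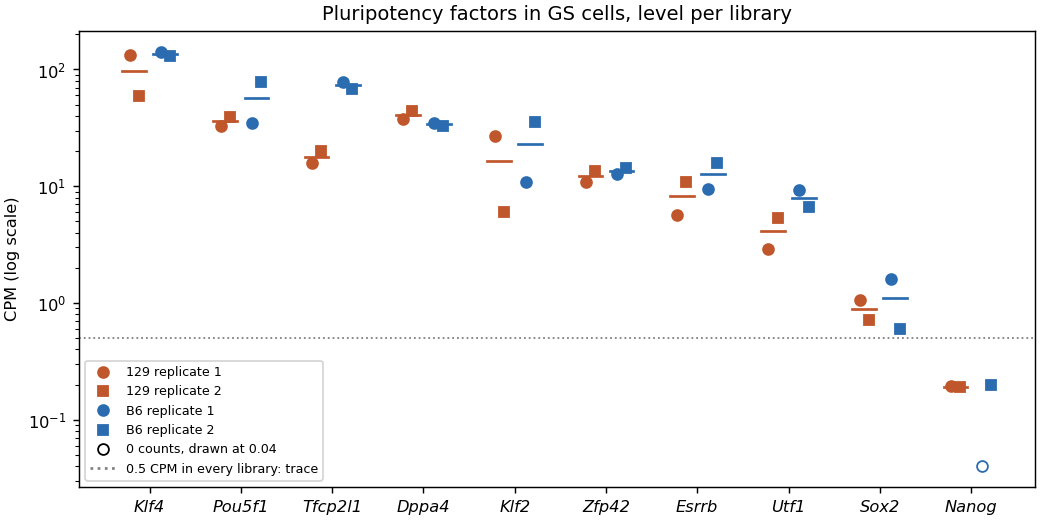
CPM of the 10 factors in each library (vertical axis, log scale), with 129 in orange left of B6 in blue, circles for replicate 1, squares for replicate 2 and short lines for strain means (none for Nanog in B6). The dotted line is at 0.5 CPM. The open circle is Nanog in B6 replicate 1, which had 0 counts. Tfcp2l1 is the factor whose strains lie far apart, with 15.7 and 19.9 CPM in 129 and 78.1 and 67.9 CPM in B6.

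Among the core factors, Pou5f1 was well expressed and Sox2 and Nanog were not. Pou5f1 (chr17:35506018-35510772, build GRCm38), which encodes the POU factor Oct4, was at 33.0 and 39.1 CPM in 129 and at 34.9 and 78.3 CPM in B6. The 129 libraries and B6 replicate 1 were alike, and B6 replicate 2 stood above them. The log2 fold change was -0.65 (SE 0.39, edgeR adjusted p = 0.33), and it was 0.0015 without B6 replicate 2. Antisense gene Gm19553 overlaps 14.1% of its exon length and had 0 counts in every library.

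Sox2 (chr3:34650405-34652461), which encodes the HMG-box partner of Oct4, had 22 and 15 counts in 129, or 1.06 and 0.711 CPM, and 40 and 12 counts in B6, or 1.61 and 0.594 CPM. The exact 95% Poisson intervals ran from 0.665 to 1.61 CPM and from 0.398 to 1.17 CPM in the 129 libraries, and from 1.15 to 2.19 CPM and from 0.307 to 1.04 CPM in the B6 libraries. The strains overlapped, with both the highest and the lowest value in B6, and Sox2 did not pass the test (log2 fold change -0.36, SE 0.65, edgeR adjusted p = 0.75). Without B6 replicate 1 its log2 fold change was 0.57. Sox2 lies within the long noncoding gene Sox2ot on the same strand, with no shared exon bases, and Sox2ot itself had 5 and 0 counts in 129 and 8 and 0 counts in B6.

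Nanog (chr6:122707489-122714633), which encodes the homeodomain factor of the naive state, was the single factor under 0.5 CPM in every library. It had 4 counts in each 129 library, 0.193 and 0.190 CPM, and 0 and 4 counts in B6, where 4 counts were 0.198 CPM. A count of 0 in B6 replicate 1 allows a level of up to 0.120 CPM at a floor of 3 counts, and its exact two-sided 95% Poisson interval reaches 0.148 CPM. Counts this low were not tested, and no strain difference was detectable at this depth. Of the 76-base windows of the Nanog transcripts, 1.54% also occur in the pseudogene Nanog-ps1, so even these few reads cannot be assigned with certainty. None of the 10 factors had 0 counts in all 4 libraries. These intervals and floors describe counting error alone, because PCR copies could not be told from independent molecules.

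Tfcp2l1 and Esrrb activate the naive state in embryonic stem cells, and the first of them carried the strain difference. Tfcp2l1 (chr1:118627945-118685168), which encodes a CP2-family transcription factor induced by LIF-STAT3 signalling in mouse embryonic stem cells, was at 15.7 and 19.9 CPM in 129 and at 78.1 and 67.9 CPM in B6. Both 129 libraries were far below both B6 libraries, and the libraries within each strain were close. The means were 17.8 ± 3.01 CPM in 129 and 73.0 ± 7.23 CPM in B6 (SD, n = 2 each). Tfcp2l1 fell by 2.04 on the log2 scale in 129 (SE 0.26, edgeR adjusted p = 0.030). DESeq2 and limma-voom also called it, with adjusted p = 1.5e-09 and adjusted p = 0.043. With 3 libraries its log2 fold change was -1.87 without 129 replicate 1 and -2.22 without 129 replicate 2. It was -1.94 without B6 replicate 1 and -2.18 without B6 replicate 2. The edgeR call held only without 129 replicate 2. In the fits where it ended, few or no genes at all were called, so that loss is not particular to Tfcp2l1.

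Esrrb (chr12:86361117-86521628), which encodes an orphan nuclear receptor repressed by Tcf7l1 and released by Wnt signalling in embryonic stem cells, was at 5.69 and 10.9 CPM in 129 and at 9.51 and 15.8 CPM in B6. The ranges overlapped, and the highest library was B6 replicate 2. Its log2 fold change was -0.60 (SE 0.48, edgeR adjusted p = 0.45). The gene shares no 76-base window with an annotated transcript of another gene.

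The genes whose pattern over the 4 libraries was most like that of Tfcp2l1 were Tex19.1, a germ cell gene, Zfp469, which encodes a zinc finger protein, and Pik3r6, which encodes a regulatory subunit of phosphoinositide 3-kinase gamma. Likeness was the root mean square distance of centred log2(CPM + 1) values over the 4 libraries, among 13527 genes averaging 1 CPM or more. The factors, predicted genes (Gm and a number), symbols ending in Rik and the lower-count rows of a shared symbol were left out. The distances were 0.093 for Tex19.1, 0.098 for Zfp469 and 0.10 for Pik3r6. Tex19.1 was at 74.4 and 106 CPM in 129 and at 342 and 333 CPM in B6, and Zfp469 at 14.0 and 15.1 CPM in 129 and at 70.8 and 56.9 CPM in B6. Pik3r6 was at 2.17 and 2.80 CPM in 129 and at 13.04 and 9.84 CPM in B6. Pik3r6 did not pass the strain test (edgeR adjusted p = 0.053).

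The Krüppel-like factors bind GC-rich boxes through 3 zinc fingers at the end of the protein, and Klf2 and Klf4 act partly in place of each other in embryonic stem cells. Klf4 (chr4:55527143-55532466), one of the classic reprogramming factors, was at 134 and 59.5 CPM in 129 and at 141 and 130 CPM in B6. A single library, 129 replicate 2, was low, and the other 3 lay together. The log2 fold change was -0.49 (SE 0.36, edgeR adjusted p = 0.42), and it was -0.02 without 129 replicate 2 and -1.19 without 129 replicate 1.

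Klf2 (chr8:72319033-72321656), also known as a flow-responsive factor of endothelial cells, was at 26.8 and 6.02 CPM in 129 and at 10.96 and 35.4 CPM in B6. Replicate 1 was the higher library in 129 and replicate 2 in B6, so the strain ranges lay across each other. Its log2 fold change was -0.49 (SE 0.79, edgeR adjusted p = 0.72), and it was 0.54 without B6 replicate 2 and 0.22 without 129 replicate 2.

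Klf4 and Klf2 are also made by fibroblasts, Sertoli cells and endothelium, and the markers of those cells varied between libraries. The 20 fibroblast and feeder markers summed to 9931 and 3998 CPM in 129 and to 7446 and 5239 CPM in B6, and none was at 0. The 9 endothelial markers summed to 205 and 87.3 CPM in 129 and to 25.1 and 24.1 CPM in B6, with Tie1 and Cldn5 under 0.5 CPM in every library. The 12 Sertoli markers summed to 288 and 153 CPM in 129 and to 48.1 and 33.9 CPM in B6. Of the defining genes, Fshr was under 0.5 CPM in every library and Cst9 was at 0. A few genes made up most of these Sertoli and endothelial sums in 129. Clu averaged 142 ± 72.5 CPM there, Eng 64.2 ± 44.7 CPM and Cdh5 57.4 ± 43.0 CPM (SD, n = 2 each). The low Klf4 and Klf2 values of 129 replicate 2 went with the lowest fibroblast sum, whereas the high Klf2 value of B6 replicate 2 went with the lower fibroblast sum of its strain. The part of these cells in the Klf values was not tested. In bulk samples fewer cells of a type and less RNA per cell cannot be told apart.

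Zfp42, Utf1 and Dppa4 are markers or chromatin factors of pluripotent cells. Zfp42 (chr8:43295063-43306980), which encodes Rex1, a zinc finger protein related to Yy1, was at 10.8 and 13.6 CPM in 129 and at 12.6 and 14.2 CPM in B6. The strains overlapped, and its log2 fold change was -0.14 (SE 0.35, edgeR adjusted p = 0.83), or 0.025 without 129 replicate 1. The pseudogene Zfp42-ps1 shares 4.20% of its 76-base windows.

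Utf1 (chr7:139943789-139945112), which encodes a chromatin-associated protein of embryonic stem cells and undifferentiated spermatogonia, was at 2.90 and 5.35 CPM in 129 and at 9.27 and 6.63 CPM in B6. Both 129 libraries were below both B6 libraries. The means were 4.12 ± 1.74 CPM in 129 and 7.95 ± 1.87 CPM in B6 (SD, n = 2 each), and the log2 fold change of -0.95 did not pass (SE 0.48, edgeR adjusted p = 0.25).

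Dppa4 (chr16:48283733-48294237), which encodes a SAP-domain chromatin protein that works with its neighbour Dppa2, was at 37.5 and 43.8 CPM in 129 and at 34.8 and 33.0 CPM in B6. It was the one factor with both 129 libraries above both B6 libraries. The log2 fold change of 0.26 did not pass (SE 0.25, edgeR adjusted p = 0.53). Of its 76-base windows, 19.65% also occur in transcripts of the processed pseudogenes Gm14058 and Gm5501, the largest shared portion among the 10. Dppa2 itself was at 4.97 and 5.50 CPM in 129 and at 7.38 and 3.61 CPM in B6.

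Read together, 9 of the 10 factors passed the filter on low counts, Nanog being left out, and 1 of these 9 was called. Over all genes tested edgeR called 2.86%, 1.84% as higher and 1.02% as lower in 129. DESeq2 and limma-voom likewise called Tfcp2l1 alone among the 9, and called 15.3% and 1.64% of all genes. At an unadjusted p under 0.05 in edgeR, Tfcp2l1 was still the single factor, 1 of 9, where 28.1% of all genes tested passed. The log2 fold change was negative for 8 of the 9 and positive for Dppa4, with a median of -0.49, against 0.015 over all genes tested, of which 49.1% were negative. Libraries of the strains did not overlap for 3 of the 9 factors, Tfcp2l1, Utf1 and Dppa4, where 60.1% of all genes tested were apart. Both 129 libraries were the lower ones for 2 of the 9, against 29.2% of all genes, and the higher ones for 1, against 31% of all genes. At this sample size the 8 factors that did not pass are not shown to be equal between strains: their SE ran from 0.25 to 0.79 on the log2 scale. An exact permutation test of a single gene could not pass here, since 2 libraries against 2 give a two-sided p of at least 0.333.

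**Figure D3:**
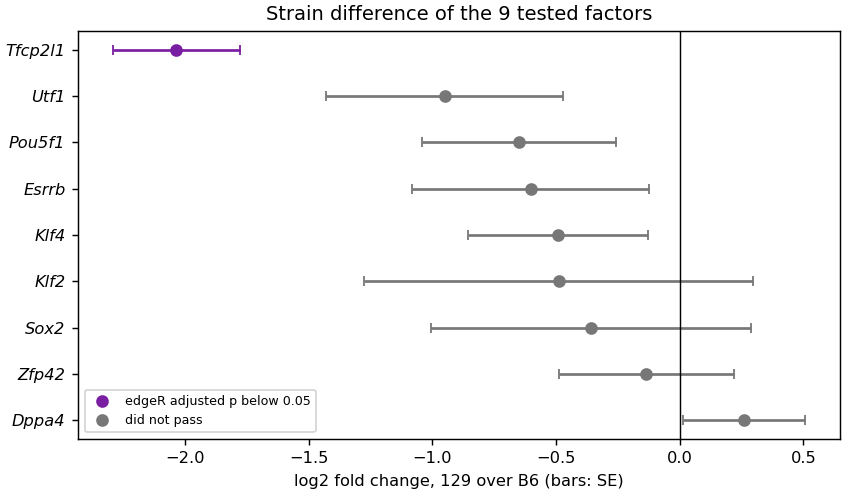
Log2 fold change of 129 over B6 (horizontal axis) for the 9 tested factors, with bars of 1 SE. Tfcp2l1, at -2.04, is the one factor past the threshold, and the other 8 lie between -0.95 and 0.26.

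The factors differed in how well the libraries of a strain agreed. Among the 11676 genes averaging 5 CPM or more, the median absolute log2 ratio between the libraries was 0.26 in 129 and 0.29 in B6. Klf2 was the least reproducible factor, with a log2 ratio of replicate 1 to replicate 2 of 2.14 in 129, larger in size than in 99.4% of those genes, and of -1.68 in B6, larger in size than in 97.7%. Klf4 differed by 1.16 in 129 but by 0.11 in B6. Pou5f1 differed by -0.25 in 129 and by -1.16 in B6. Esrrb moved the same way in both strains, by -0.92 in 129 and by -0.73 in B6. Dppa4, Zfp42 and Tfcp2l1 were the steadiest of the tested factors, with absolute log2 ratios of 0.08 to 0.34. In 129, however, Tfcp2l1 and Zfp42 differed more than 61.9% and 59.7% of the genes averaging 5 CPM or more.

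**Figure D4:**
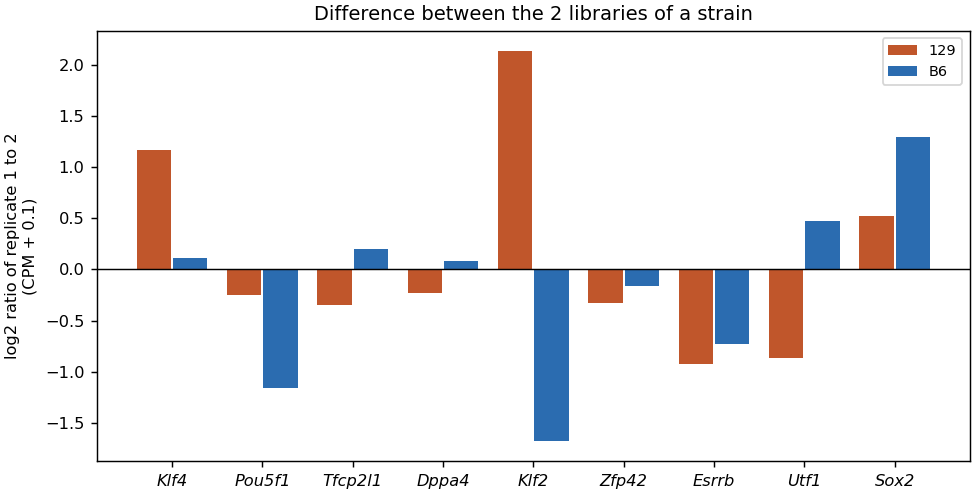
Log2 ratio of replicate 1 to replicate 2 (vertical axis, from CPM + 0.1) within 129 (orange) and within B6 (blue) for the 9 tested factors. Klf2 has the longest bars, 2.14 in 129 and -1.68 in B6, and they point in opposite directions.

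The other core and naive genes held no edgeR call. Of 30 other core and naive genes 23 were tested and 0 were called by edgeR, with 6 positive and 17 negative log2 fold changes and a median of -0.27, and DESeq2 called 3 higher and 0 lower. By CPM, which is not corrected for length, the highest were Trim28, a corepressor gene, at 570 ± 38.4 CPM in 129 and 688 ± 6.81 CPM in B6, and Lin28a, an RNA-binding inhibitor of let-7 processing, at 199 ± 65.8 CPM in 129 and 278 ± 37.0 CPM in B6 (SD, n = 2 each). The DESeq2 calls were Tcl1, a coactivator of AKT kinase, at 79.1 and 97.6 CPM in 129 and 22.6 and 44.4 CPM in B6 (DESeq2 adjusted p = 0.0048), Tcf7l1, the Wnt-pathway repressor, at 17.2 and 13.98 CPM in 129 and 3.85 and 7.96 CPM in B6 (DESeq2 adjusted p = 0.031), and Myc, a growth factor-responsive regulator of proliferation, at 32.1 and 10.9 CPM in 129 and 7.10 and 6.68 CPM in B6 (DESeq2 adjusted p = 0.025). Prdm14, Nr0b1, Tdgf1, Fgf4 and L1td1, genes of embryonic stem cells, were under 0.5 CPM in every library, as Nanog was. At an unadjusted p under 0.05, 5 of the 23 passed in edgeR, against 28.1% of all genes tested. DESeq2 called 15.3% and edgeR 2.86% of all genes tested, which is the background for this list and those below.

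The formative and primed genes, which mark the step after the naive state, had 11 of 16 members tested. Of these, 0 were called by edgeR and 3 were called lower by DESeq2. The log2 fold changes were positive for 5 and negative for 6, with a median of -0.13. At an unadjusted p under 0.05 in edgeR 6 passed, where 28.1% of all genes did. Among those 6, Foxa2, T and Lefty1 were higher in 129, and Dnmt3b, Sox3 and Grhl2 were lower. Foxa2 was at 57.9 ± 4.28 CPM in 129 and 9.71 ± 11.5 CPM in B6 (SD, n = 2 each), and did not pass (edgeR adjusted p = 0.12). The primed markers Otx2 and Fgf5 were under 0.5 CPM in every library. Pou3f1 was at 71.9 ± 6.47 CPM in 129 and 78.5 ± 5.21 CPM in B6, and Dnmt3b, a DNA methyltransferase gene, at 65.9 ± 0.528 CPM in 129 and 115 ± 18.5 CPM in B6 (SD, n = 2 each), with a log2 fold change of -0.80 (SE 0.21, edgeR adjusted p = 0.071).

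Among 20 genes that feed signals into the naive circuit, 1 was called higher in 129, 0 were called lower by edgeR, and the median was 0.25. At an unadjusted p under 0.05 in edgeR 6 of the 20 passed, where 28.1% of all genes tested did. DESeq2 called 4 higher and 0 lower, Socs3 and the BMP-induced inhibitors Id1, Id2 and Id3. Id2, for one, averaged 11.7 ± 10.7 CPM in 129 and 0.936 ± 0.0752 CPM in B6 (SD, n = 2 each), with a log2 fold change of 3.64 (SE 0.89, edgeR adjusted p = 0.066). Socs3, the feedback inhibitor induced by STAT3, rose to 319 and 316 CPM in 129, against 102 and 115 CPM in B6 (log2 fold change 1.55, SE 0.18, edgeR adjusted p = 0.029). Without 129 replicate 1, B6 replicate 1 or B6 replicate 2 the Socs3 call ended, with log2 fold changes of 1.55, 1.46 and 1.60. Those fits called few or no genes at all. In embryonic stem cells Socs3, Tfcp2l1 and Klf4 are all induced by STAT3. Here Socs3 was higher in 129, Tfcp2l1 was lower and Klf4 did not pass. The part of STAT3 signalling, or of other cell types in the cultures, in these levels was not tested. The LIF receptor gene Lifr was at 51.4 and 81.5 CPM in 129 and 71.0 and 66.8 CPM in B6, and Stat3 at 511 and 504 CPM in 129 and 410 and 527 CPM in B6, and neither passed.

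Relatives of the factors share their DNA-binding domains. Of 33 relatives 29 were tested, 0 were called by edgeR and 6 were called lower by DESeq2, with a median of -0.09, and 11 passed at an unadjusted p under 0.05 in edgeR, where 28.1% of all genes did. Sox3, the X-linked relative of Sox2 that is active in spermatogonia, was at 27.3 and 47.2 CPM in 129 and 107 and 80.7 CPM in B6, a log2 fold change of -1.33 that did not pass in edgeR (SE 0.31, adjusted p = 0.062) and passed in DESeq2 (adjusted p = 0.0044). Among 15 other Klf genes 14 were tested and 0 passed in edgeR, and 4 were called lower by DESeq2. Klf11 was at 112 and 108.5 CPM in 129 and at 191 and 194 CPM in B6 (log2 fold change -0.80, SE 0.17, edgeR adjusted p = 0.055). Pou2f1, which encodes the widely expressed octamer-binding factor Oct1, was at 91.2 ± 20.2 CPM in 129 and 156 ± 35.5 CPM in B6 (SD, n = 2 each). Yy2, a relative of Zfp42, had 0 counts in every library.

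Most genes of germ cell identity, like most of the factors, had negative log2 fold changes, 19 of 25. Of these 25 genes, 1 rose, 2 fell and 22 did not pass in edgeR, and the median was -0.57. DESeq2 called 2 higher and 8 lower, where it called 15.3% of all genes tested. At an unadjusted p under 0.05 in edgeR 14 passed, where 28.1% of all genes tested did. The summed level of the 25 genes was 4156 and 5386 CPM in 129 and 6148 and 6476 CPM in B6. Etv5, a transcription factor induced by GDNF, was the one that rose (log2 fold change 1.64, SE 0.22), while Uchl1 (-1.20, SE 0.19) and Sohlh1 (-1.55, SE 0.20) fell. Each of these calls ended without 129 replicate 1, B6 replicate 1 or B6 replicate 2, fits that called few or no genes at all. The part of germ cell content in the levels of the 10 factors was not tested. Among markers of other cells, edgeR called higher in 129 the fibroblast genes Pdgfra and Fbln1, the Sertoli genes Clu and Rhox5, the muscle gene Des and the endothelial genes Cdh5 and Eng, and none lower. These calls ended in the same 3 fits. With limma-voom those of Pdgfra, Fbln1, Rhox5, Eng and Cdh5 ended, Pdgfra and Fbln1 were also lost with no filter and with the stricter filter, and Fbln1 further without 129 replicate 2, with the replicate block and in the older edgeR fit. Other members of the same lists pointed the other way, and 9 of 20 fibroblast markers were negative. DESeq2 called 7 of the 20 higher and 4 lower, where it called 15.3% of all genes tested. Among the lower ones were Postn (log2 fold change -2.22, SE 0.51) and Col3a1 (-1.86, SE 0.60). DESeq2 also called lower the Sertoli gene Inhbb (-2.86, SE 0.61) and the muscle gene Tagln (-2.58, SE 0.78), and edgeR called none of these 4 named genes. The medians were 0.41 for 20 fibroblast, 1.36 for 10 Sertoli, 0.27 for 7 peritubular muscle, 0.78 for 6 endothelial and -0.36 for 5 macrophage markers tested, against 0.015 over all genes. Peritubular muscle markers summed to 105 and 49.4 CPM in 129 and to 94.6 and 37.8 CPM in B6. Leydig markers, of which 1 of 7 was tested and did not pass, summed to 4.44 and 4.55 CPM in 129 and to 9.23 and 6.28 CPM in B6. Macrophage markers summed to 50.5 and 19.9 CPM in 129 and to 30.5 and 27.7 CPM in B6, and none passed in edgeR, with 1 at an unadjusted p under 0.05 and 1 called higher by DESeq2.

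**Figure D5:**
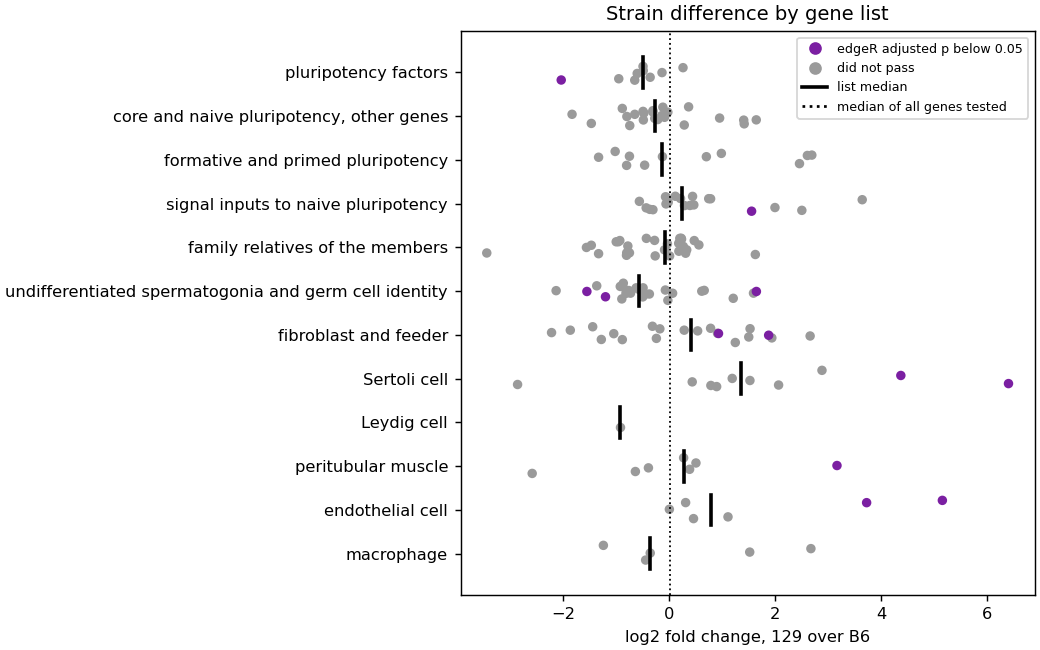
Log2 fold change of 129 over B6 (horizontal axis) for each tested gene of the 10 factors and of 11 further lists, 1 row per list, with a black bar at the list median and a dotted line at the median of all genes tested, 0.015. Genes past the edgeR threshold are purple; Tfcp2l1, at -2.04, is the only purple point among the pluripotency factors, and Socs3, at 1.55, the only one among the signal inputs.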

How the data were processed

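RNA of 4 libraries of cultured mouse spermatogonia was sequenced in single reads of 76 bp from a stranded mRNA kit, per the series' design text. The deposited values are raw counts per gene and library, 20375086 to 25374801 in total, and every row named a gene. The submitters' processing notes list HTSeq 0.13.5, HISAT2 2.2.1, cutadapt 3.4, bcl2fastq 2.20, DESeq2 1.30.1 and the build mm10, without roles or settings. How strand and reads with several matches were treated, and the annotation release, are not given in the sources used. The build is a C57BL/6 assembly, and aligning 129 reads to it can lose reads at strain variants, which was not tested.

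Libraries were assigned to strain and replicate by title. Libraries within a strain differed beyond sampling noise (chi-square per gene 70.4 in 129 and 55.2 in B6). In R 4.3.3, edgeR 4.0.16 was run with filterByExpr, TMM factors and the robust quasi-likelihood fit, with strain as the only term. DESeq2 1.42.0 and limma-voom (limma 3.58.1), other scalings and filters, a replicate block, non-robust estimation and leaving out each library were alternatives. The older form of the edgeR fit was added after seeing the data. Fits were run on simulated data, with a pass rule for the estimated changes and none for false or missed calls. TPM used merged exon lengths of GENCODE M21, which held 99.85% of gene identifiers.

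The factors and the 11 lists were chosen with earlier results of these data known. From each list the text names up to 2 called genes per direction, otherwise the 2 with the highest CPM, and the 3 genes nearest in pattern to a called factor. Ddx4, Dazl, Dppa2, Tcl1, Tcf7l1, Myc, Foxa2, T, Lefty1, Grhl2, Lifr, Stat3, Id1, Id2, Id3, Sox3, Postn, Col3a1, Inhbb, Tagln, Sox2ot and the genes at or near 0 fall outside that rule, having been picked with their values in view.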

Additional observations from a re-analysis of the deposited data

How the results depend on the processing

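Under the 9 alternatives that used all 4 libraries, the tested factors kept their direction in 81 of 81 values and Tfcp2l1 was called in 9 of 9. The count of all genes called, 457 with edgeR as reported, was 1052 with library totals, 260 with no filter, 301 with a stricter filter, 2455 with DESeq2 and 263 with limma-voom. Called members of the other lists, 11 as reported, numbered 43 with DESeq2 and 6 with limma-voom. The lists held 182 different genes, not all of them tested. Over all genes tested, edgeR called 2.86%, DESeq2 15.3% and limma-voom 1.64%. With a replicate block, 844 genes, 18 list members and 1 factor, Tfcp2l1, were called. Deviations of same-numbered libraries correlated at -0.022 over 16005 genes. That value showed no pairing by number but cannot show that none exists. Leaving out each library in turn gave 0 to 827 genes called, 0 to 23 list members and 0 to 1 factors. At an unadjusted p under 0.05 the fit with 0 calls, without B6 replicate 1, still had 3251 genes. These fits leave 1 strain with a single library, which is assumed to vary like the other strain. In them the log2 fold change ranged from -1.13 to 0.0015 for Pou5f1, from -0.90 to 0.57 for Sox2, from -1.93 to 0.54 for Klf2 and from -0.31 to 0.025 for Zfp42, turning positive without B6 replicate 2 (Pou5f1), B6 replicate 1 (Sox2), 129 replicate 2 or B6 replicate 2 (Klf2, 0.22 and 0.54) and 129 replicate 1 (Zfp42). The cause was not tested. Klf4, Tfcp2l1, Esrrb, Utf1 and Dppa4 kept their direction there. Depth limits Nanog, at 12 counts in all, and Sox2, at 89.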
